A study of Mus musculus with 15 samples.

Results

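The genes described here are 9 members of the Bcl2 family, the proteins that decide whether the outer mitochondrial membrane stays intact. They were taken from the table of 17271 gene symbols by exact match to the symbols Bcl2, Bcl2l1, Mcl1, Bak1, Bid, Bik, Bmf, Bcl2l11 and Pmaip1, and all 9 were found. RNA was measured by poly(A) sequencing in 15 mammary tumours of BALB/c mice, every one with the genotype p53-NULL. They come from 4 models: 2208L with 8 samples, 2151R with 4, 2225L with 2 and T11 with 1. The titles mark 2 samples of 2151R as NT or NT2 and give the other 2 marks of their own, and those of 2208L as PBS in 4 samples and 3day nt in 3, with 1 sample of 2208L carrying neither mark. No age, sex or drug is given for any group, and the meaning of 3day nt and of the other marks is not given. The series text writes 215R and 225L for the models that the titles and the header of the table call 2151R and 2225L.

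Proteins of this family fall into groups with different roles. Bcl2, Bcl-xL (the product of Bcl2l1) and Mcl1 hold death signals in check by binding other members of the family. Bak and Bax are the effectors that form pores in the mitochondrial outer membrane and let cytochrome c escape to the caspases. The BH3-only proteins respond to stress, either by activating the effectors, as Bim (the product of Bcl2l11) and Bid do, or by occupying the survival proteins, as Bmf, Bik and Noxa (the product of Pmaip1) do. Pmaip1 and the related Bbc3 are known as genes that p53 activates, and all tumours compared here are labelled p53-null. In the mammary gland, Bim and Bmf are known for the clearing of epithelial cells from the duct lumen.

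Values are log2 ratios to a reference level that the authors set for each gene and did not state, so samples can be compared within a gene and levels of different genes cannot be ranked. Sequencing depth is unknown because the table holds no counts, and the errors given are those between samples. Nothing in the labels says whether samples of a model came from separate mice. The p-values therefore measure the spread between these samples, which may be technical. Genes were compared with limma over all 17271 genes, and a gene is called different at a Benjamini-Hochberg adjusted p under 0.05. The comparisons of 2151R and of 2225L with 2208L use the same 8 samples of 2208L, and those with 2151R use the same 4 samples of 2151R. T11 has 1 sample and no test. Its differences are marked as large from 1 log2 unit. Fits that leave out a sample of 2225L, or keep only libraries with the prefix CP, hold 1 sample of 2225L. That sample is then assumed to vary like the other models, so a call gained or lost there is no replicated result.

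The tumours also differed in cell type markers. The summed log2 value of 6 epithelial genes was -35.2 to -28.7 in 2151R and -52.7 in T11, against 4.06 to 5.37 in 2225L and 2.85 to 7.96 in 2208L. That of 5 macrophage genes was 5.45 to 6.77 in 2151R, 6.45 in T11, -10.2 to -5.20 in 2225L and -5.03 to 1.43 in 2208L. That of 4 endothelial genes was 1.7 to 4.3 in 2151R, 2.35 in T11, -3.85 to 0.63 in 2225L and -5.46 to 0.15 in 2208L. For 5 skeletal muscle genes it was -14.5 to 37.0 (median -13.6) in 2151R and -17.9 to 53.4 (median 9.62) in 2208L. For 4 neutrophil genes it was -5.06 to 1.74 in 2151R, 2.90 in T11, -9.83 to -8.97 in 2225L and -2.50 to 8.76 in 2208L. In a whole tumour, fewer cells of a type and less RNA per cell cannot be told apart. The part of these cells in the values of Mcl1, Pmaip1 and the other members was not tested. Trp53, the gene for p53, lay at 0.19 ± 0.081 (SD, n = 4) in 2151R, at 1.63 and -0.18 in 2225L and between -0.29 and 0.16 in 2208L, and centred values do not show whether it is expressed. The 4 libraries of 2151R hold a range of library numbers of their own, so an effect of the model and one of that range cannot be told apart.

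**Figure D1:**
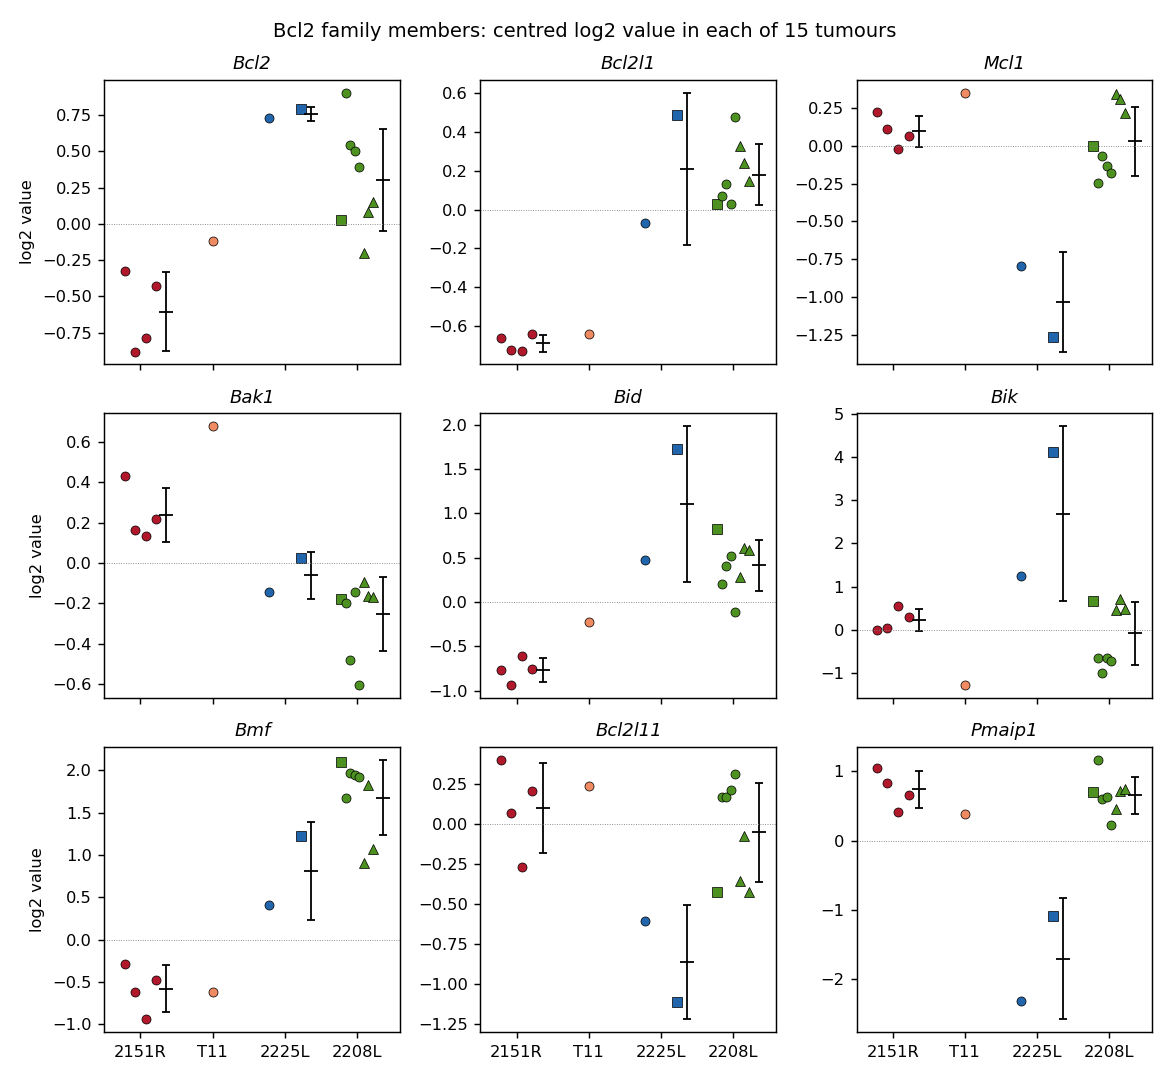
Centred log2 value (vertical axis) of each of the 9 genes in each of the 15 tumours, by model (horizontal axis). Squares are libraries with the prefix ROSEN, triangles the 2208L samples titled 3day nt, circles all others, and bars the mean ± SD of a model with more than 1 sample. Bcl2, Bcl2l1, Bid and Bmf sit lower in all 4 samples of 2151R than in any sample of 2208L, and Mcl1 and Pmaip1 sit lowest in both samples of 2225L.

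Between 2151R and 2208L, Bcl2, Bcl2l1, Bid and Bmf were lower in 2151R and Bak1 was higher. Thus 4 of the 9 members were called lower, where 22.7% of all genes were, and 1 was called higher, where 26.1% of all genes were. The median difference was 0.06 over the members and 0.10 over all genes. The 4 lower genes comprise a pair of survival genes and a pair of BH3-only genes, so both sides of the family were among them. Mcl1, Bik, Bcl2l11 and Pmaip1 were not called.

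The promoters of the 4 genes that were lower together in 2151R are shown because they give the sequence at the start of each gene. Each is the RefSeq window of GRCm38.p6 that runs from 250 bases before to 50 bases after a transcription start, 5′ to 3′ on the minus strand, where all 4 genes lie. Capitals mark GC boxes, the letters GGGCGG or, for the other strand, CCGCCC. For Bcl2l1 and Bmf, which have several annotated starts, the outermost window is printed. The windows are Bcl2 at chr1:106714241-106714540, Bcl2l1 at chr2:152831679-152831978, Bid at chr6:120916775-120917074 and Bmf at chr2:118549637-118549936.
Bcl2: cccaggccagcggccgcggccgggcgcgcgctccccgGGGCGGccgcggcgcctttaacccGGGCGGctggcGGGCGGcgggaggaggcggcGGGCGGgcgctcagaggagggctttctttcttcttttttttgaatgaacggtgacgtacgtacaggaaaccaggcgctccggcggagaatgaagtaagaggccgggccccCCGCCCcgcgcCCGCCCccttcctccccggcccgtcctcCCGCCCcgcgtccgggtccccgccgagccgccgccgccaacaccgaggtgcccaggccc
Bcl2l1: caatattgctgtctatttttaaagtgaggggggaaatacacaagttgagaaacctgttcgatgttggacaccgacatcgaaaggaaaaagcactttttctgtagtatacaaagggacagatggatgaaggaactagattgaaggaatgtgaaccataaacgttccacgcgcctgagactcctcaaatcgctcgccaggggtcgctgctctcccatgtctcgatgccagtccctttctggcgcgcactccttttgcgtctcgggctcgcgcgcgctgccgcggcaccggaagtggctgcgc
Bid: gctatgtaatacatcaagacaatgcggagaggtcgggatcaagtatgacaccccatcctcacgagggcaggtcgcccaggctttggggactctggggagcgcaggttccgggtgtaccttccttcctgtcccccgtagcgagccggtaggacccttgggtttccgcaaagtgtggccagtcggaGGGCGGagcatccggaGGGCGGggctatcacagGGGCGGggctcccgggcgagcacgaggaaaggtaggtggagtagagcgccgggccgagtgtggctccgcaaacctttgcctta
Bmf: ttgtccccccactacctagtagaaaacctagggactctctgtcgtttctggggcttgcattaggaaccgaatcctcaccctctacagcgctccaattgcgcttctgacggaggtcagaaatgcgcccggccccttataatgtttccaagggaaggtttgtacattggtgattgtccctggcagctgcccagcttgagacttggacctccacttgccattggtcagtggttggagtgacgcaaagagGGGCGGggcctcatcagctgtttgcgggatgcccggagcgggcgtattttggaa

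Printed side by side, these windows ranged widely in G and C content, though those of Bmf and Bcl2l1 were close. The Bcl2 window had 76.0% G and C and 7 GC boxes, that of Bid 63.33% and 3, that of Bmf 55.33% and 1, and that of Bcl2l1 52.33% and none (0). The median G and C content of all 32851 promoter windows of this length was 52.67%, and 35.7% of them held a GC box. Neither CACCTG (or CAGGTG on the other strand), which 20.2% of all windows hold, nor TATAAA (or TTTATA), which 13.6% hold, was found in any of the 12 windows of the 7 members matched in the table. The match of letters is a description of these windows only.

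Among the survival genes, Bcl2 separated 2151R from both other replicated models. Its log2 value was -0.33, -0.88, -0.79 and -0.43 in the samples of 2151R and 0.73 and 0.80 in those of 2225L. In 2208L it ran from -0.20 to 0.90 with a median of 0.27, and in T11 it was -0.12. All 4 samples of 2151R lay below all others, and T11 lay between 2151R and 2225L, within the range of 2208L. The difference of 2151R from 2208L was -0.90 (SE 0.197, limma adjusted p 0.00196), with an exact two-sided permutation p of 0.00404, the smallest that 4 against 8 samples allow. For 2225L against 2151R the difference was 1.37 (SE 0.279, limma adjusted p 0.00135). For 2225L against 2208L it was 0.46, with a 95% interval of -0.09 to 1.01, and was not called. It became a call in 1 of 24 alternatives, that with the 3day nt samples alone as 2208L.

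Bcl2l1 had the tightest values of the members in 2151R, at -0.66, -0.72, -0.73 and -0.64. It was -0.64 in T11, -0.07 and 0.49 in 2225L, and 0.03 to 0.48 (median 0.14) in 2208L. No sample of 2151R or T11 reached the lowest sample of the other models, while 2225L overlapped 2208L. The gene was lower in 2151R than in 2208L, with a difference of means of -0.87 (SE 0.132 by limma, adjusted p 0.000114, exact permutation p 0.00404). It was higher in 2225L than in 2151R by 0.90 (SE 0.186, limma adjusted p 0.00149). The difference of 2225L from 2208L was 0.03, with an interval of -0.34 to 0.40.

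Mcl1 had another order, with 2225L alone at the bottom. It was -0.80 and -1.26 in 2225L, against 0.22, 0.11, -0.02 and 0.06 in 2151R, 0.35 in T11 and -0.24 to 0.34 (median -0.03) in 2208L. Both samples of 2225L lay below all 13 other tumours. The difference was -1.06 from 2208L (SE 0.192, limma adjusted p 0.00103), with an exact permutation p of 0.0444, the smallest that 2 against 8 samples allow. From 2151R it was -1.12 (SE 0.210, limma adjusted p 0.000725). Between 2151R and 2208L it differed by 0.06, with an interval of -0.26 to 0.38.

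Bak1, the effector in the set, was highest in T11 and 2151R. The values of 2151R were 0.43, 0.16, 0.13 and 0.21, and that of T11 was 0.68. In 2225L they were -0.14 and 0.02, and in 2208L -0.61 to -0.09 with a median of -0.17. All 5 samples of 2151R and T11 lay above all 10 of 2225L and 2208L. Bak1 was higher in 2151R than in 2208L by 0.49 (SE 0.128, limma adjusted p 0.00653, exact permutation p 0.00404). This call was lost when the fit was limited to samples whose titles say NT, nt or PBS (difference 0.44, limma adjusted p 0.0934). Its differences of 2225L from 2208L (0.19, interval -0.16 to 0.55) and from 2151R (-0.30, interval -0.69 to 0.10) were not called.

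Bid links death receptors to mitochondria once caspase-8 has cut its protein. Its values in 2151R were -0.76, -0.94, -0.61 and -0.76, and T11 had -0.22. They were 0.48 and 1.72 in 2225L and -0.11 to 0.82 (median 0.47) in 2208L. The 2151R samples and T11 lay below all others. The 2225L samples stood 1.24 apart, and the higher of them lay above the range of 2208L. Bid differed by -1.18 between 2151R and 2208L (SE 0.219, limma adjusted p 0.000594, exact permutation p 0.00404). Between 2225L and 2151R it differed by 1.87 (SE 0.310, limma adjusted p 0.000284). The 0.69 by which 2225L lay above 2208L was not called (limma adjusted p 0.0798). With replicate 1 of 2225L left out, the difference of the remaining sample was 1.31.

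Bmf, a BH3-only gene known for responses to loss of attachment, had the largest difference of the members between 2151R and 2208L. It was -0.29, -0.62, -0.94 and -0.48 in 2151R, -0.62 in T11, 0.40 and 1.22 in 2225L, and 0.90 to 2.10 (median 1.87) in 2208L. The models fell in the order 2151R, 2225L and 2208L, with T11 inside the range of 2151R and 2225L partly inside that of 2208L. The difference of 2151R from 2208L was -2.25 (SE 0.251, limma adjusted p 7.31e-06, exact permutation p 0.00404). For 2225L against 2151R it was 1.39 (SE 0.355, limma adjusted p 0.00588). Without replicate 2 of 2225L it was 0.98 and that call was lost, as it was within the CP libraries, which hold the same sample of 2225L. For 2225L against 2208L it was -0.86 and not called (limma adjusted p 0.0567), and it became a call in 8 of 24 alternatives, among them the library prefix as a covariate (-1.09, limma adjusted p 0.0201).

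Between 2225L and 2208L, Mcl1, Bcl2l11 and Pmaip1 were lower in 2225L and Bik was higher. That makes 3 members called lower, where 17.3% of all genes were, and 1 called higher, where 15.6% were. The median difference was 0.03 over the members and -0.04 over all genes. The samples of 2225L differ in library prefix, with replicate 1 marked CP and replicate 2 ROSEN, and 1 of the 8 samples of 2208L is also marked ROSEN. The members' values are given for both samples of 2225L. The CP libraries hold only replicate 1 of 2225L. Within them, the calls of Bcl2l11 and Bik against 2208L were lost, and the difference of Bmf was -1.21.

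**Figure D2:**
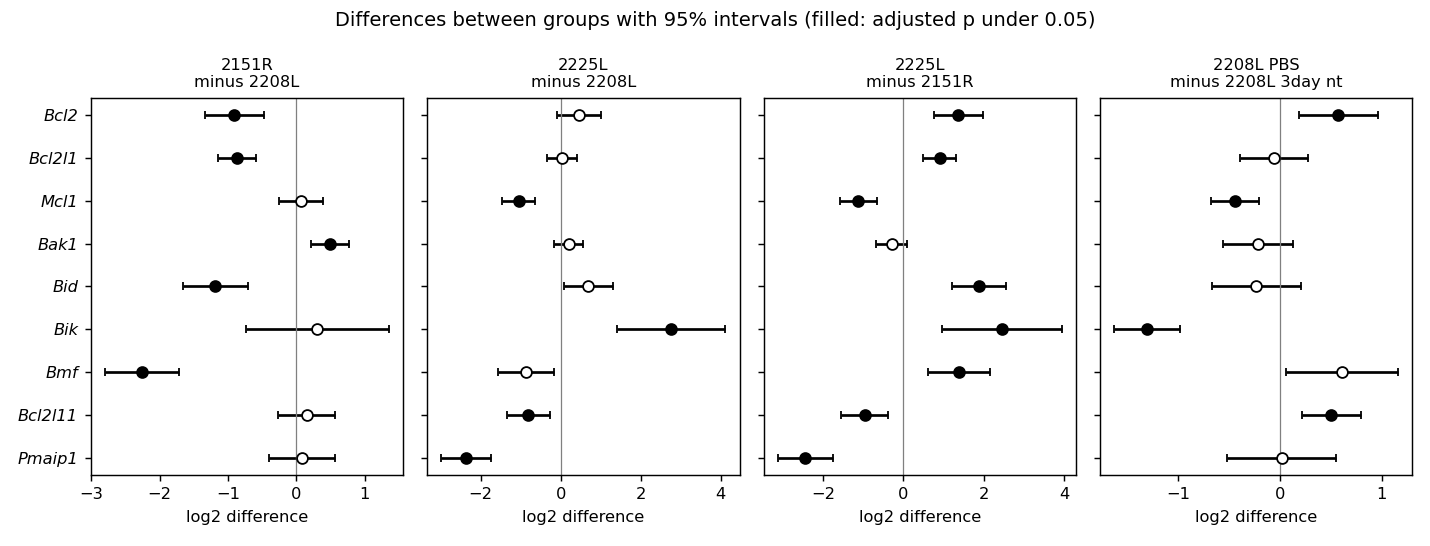
Difference of group means on the log2 scale (horizontal axis) with its 95% interval for the 9 genes (vertical axis) in 4 comparisons. Filled points have a limma adjusted p under 0.05. Filled points number 5 for 2151R minus 2208L, 4 for 2225L minus 2208L, 8 for 2225L minus 2151R and 4 for 2208L PBS minus 3day nt.

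Pmaip1 had the largest fall in 2225L. The values there were -2.32 and -1.09, against 1.05, 0.82, 0.41 and 0.66 in 2151R, 0.39 in T11 and 0.23 to 1.16 (median 0.67) in 2208L. Both samples of 2225L lay below all 13 others by more than 1 log2 unit, while 2151R, T11 and 2208L overlapped. Pmaip1 differed by -2.36 from 2208L (SE 0.288, limma adjusted p 5.12e-05, exact permutation p 0.0444) and by -2.44 from 2151R (SE 0.316, limma adjusted p 3.51e-05). With the CP libraries only, which hold 1 sample of 2225L, the difference from 2208L was -2.97. Between 2151R and 2208L it differed by 0.08, with an interval of -0.40 to 0.56.

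Bcl2l11, the gene for Bim, was lower in 2225L by a smaller amount. It was -0.61 and -1.11 in 2225L, 0.40, 0.07, -0.27 and 0.20 in 2151R, 0.23 in T11 and -0.43 to 0.31 (median 0.05) in 2208L. Both samples of 2225L lay below the others, the nearer by a small margin. The difference from 2208L was -0.81 (SE 0.250, limma adjusted p 0.0244, exact permutation p 0.0444) and from 2151R -0.96 (SE 0.274, limma adjusted p 0.0109). Within the CP libraries, which hold 1 sample of 2225L, these were -0.61 and -0.71, and neither was called. The call was lost in 6 of 23 alternatives against 2208L and in 4 of 16 against 2151R. Quantile normalization and sample weights were among them in both. Against 2208L they also included the fit with the 3day nt samples alone as 2208L. Between 2151R and 2208L the difference was 0.15, with an interval of -0.27 to 0.57.

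Bik, a BH3-only gene whose protein sits largely at the endoplasmic reticulum, spread most among the members. It was 1.25 in replicate 1 and 4.11 in replicate 2 of 2225L. Values in 2151R were 0.00, 0.06, 0.55 and 0.30, that of T11 was -1.28, and those of 2208L ran from -1.0 to 0.72 with a median of -0.09. Both samples of 2225L lay above all others and T11 lay below all others. The difference of 2225L was 2.76 from 2208L (SE 0.628, limma adjusted p 0.00457, exact permutation p 0.0444) and 2.46 from 2151R (SE 0.688, limma adjusted p 0.00993). Without replicate 2 of 2225L these differences were 1.33 and 1.03, and neither was called. Within the CP libraries, which hold the same sample of 2225L, they were 1.44 and 1.03. The call of Bik against 2208L was also lost with the 3day nt samples alone as 2208L. The difference of 2151R from 2208L was 0.31, with an interval of -0.74 to 1.36.

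Between 2225L and 2151R, 8 of the 9 members were called. Bcl2, Bcl2l1, Bid, Bik and Bmf were higher in 2225L, which is 5 members where 22.8% of all genes were called higher. Mcl1, Bcl2l11 and Pmaip1 were lower, which is 3 members where 25.8% of all genes were called lower. Bak1 was not called (limma adjusted p 0.196), although its groups did not overlap. The median difference was 0.90 over the members and -0.10 over all genes. Without replicate 2 of 2225L, 5 members were called, with Bik, Bmf and Bcl2l11 lost.

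The single T11 tumour lay within 1 log2 unit of the mean of 2151R at 8 of the 9 members. Against the mean of 2208L no member (0) was higher by 1 log2 unit or more, where 22.9% of all genes were, and 2 were lower, where 15.6% of all genes were. These were Bmf (-2.29) and Bik (-1.20). Of the others, Bcl2l1 (-0.82) and Bid (-0.64) lay below the range of 2208L, Bak1 (0.93) and Mcl1 (0.32) above it, and Bcl2 (-0.42), Bcl2l11 (0.29) and Pmaip1 (-0.27) within it. Against the mean of 2151R no member (0) was higher by that much, where 15% of all genes were, and 1 was lower, where 10.5% of all genes were. That was Bik, at -1.50. Bmf differed by -0.04 and Bcl2l1 by 0.05, while Bid (0.54), Bcl2 (0.49) and Bak1 (0.44) lay above 2151R.

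Within 2208L, 4 of the 9 members differed between the samples titled PBS and those titled 3day nt, and 5 were not called. Bcl2 and Bcl2l11 were higher in PBS, which is 2 members where 17.4% of all genes were called higher, and Mcl1 and Bik were lower, which is 2 where 16.5% of all genes were called lower. Bik was -1.0 to -0.64 in the 4 PBS samples and 0.46 to 0.72 in the 3 others (difference -1.31, SE 0.137, limma adjusted p 0.00293). Mcl1 was -0.24 to -0.07 against 0.21 to 0.34 (-0.44, SE 0.0990, limma adjusted p 0.0174). Bcl2 was 0.39 to 0.90 against -0.20 to 0.15 (0.57, SE 0.162, limma adjusted p 0.0355), and Bcl2l11 was 0.17 to 0.31 against -0.42 to -0.07 (0.50, SE 0.122, limma adjusted p 0.0221). The subsets did not overlap at these 4 genes, as they did not at 44.8% of all genes, and an exact test of 4 against 3 samples cannot go below a p of 0.0571. The call of Bcl2 was lost in 7 of 15 alternatives, among them those without replicate 2, 3, 4, 6, 7 or 8 of 2208L. That of Bcl2l11 was lost in 5 of 15, among them those without replicate 2, 3, 6 or 8. Mcl1 lost its call in 4 of 14, among them those without replicate 6 or 8, and Bik in 1 of 15.

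These subset differences came with other changes. The summed value of 5 skeletal muscle genes was -14.2 to 13.9 in PBS and 9.31 to 53.4 in 3day nt samples, and that of 4 neutrophil genes was 4.65 to 8.76 against -2.50 to 3.64. The sum of 4 B cell genes was -5.19 to -4.41 in PBS and -2.01 to 0.03 in 3day nt samples, without overlap. For 4 adipocyte genes it was -14.3 to 10.2 (median -10.9) against 9.79 to 11.4 (median 10.5), and for 5 T cell genes -13.1 to 2.08 against -0.24 to 3.24. Without the samples with the highest muscle sums (replicates 6 and 8 of 2208L), 1 sample titled 3day nt remained, which is then assumed to vary like the PBS samples, and no member (0) was called. Bik then differed by -1.47 (limma adjusted p 0.0759) and Mcl1 by -0.46 (limma adjusted p 0.242). Bcl2 differed by 0.51 (limma adjusted p 0.340) and Bcl2l11 by 0.29 (limma adjusted p 0.401). The part of RNA from these other cells in the differences was not tested. The subsets come from separate ranges of library numbers, so an effect of the subset and one of that range cannot be told apart.

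Of the Bcl2 family outside the 9 genes, 9 further genes were in the table. Between 2151R and 2208L, Bok was higher in 2151R, Bbc3 was lower, and 6 were not called. Hrk, whose 2151R values are mostly 1 repeated exact value, was also called lower. These counts are 1 of 9 higher and 2 of 9 lower, where 26.1% and 22.7% of all genes were. Bok, a relative of Bax and Bak1, was 1.0 to 1.28 in 2151R and -3.66 to -1.75 in 2208L, which differ by 3.68 (SE 0.381, limma adjusted p 3.63e-06). In 2225L it was -0.87 and 1.12, above 2208L by 2.67 (SE 0.492, limma adjusted p 0.00114), and in T11 it was -0.79. No sample of 2208L overlapped another model at Bok.

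Bbc3, which encodes the BH3-only protein Puma, was -1.70 to -1.27 in 2151R and -0.25 to 0.39 in 2208L (difference -1.65, SE 0.269, limma adjusted p 0.000211). It was -0.36 and 1.49 in 2225L, higher than 2151R by 2.04 (SE 0.380, limma adjusted p 0.000697), and -0.26 in T11. The genes Pmaip1 and Bbc3 thus had different low models, 2225L for Pmaip1 and 2151R for Bbc3. Hrk, another BH3-only gene, shared the exact value -1.41 in 3 of the 4 samples of 2151R and in T11, so these are not read as measured levels. It ran from 0.00 to 2.42 in 2208L, and was 3.73 and 2.38 in 2225L. Hrk was called higher in 2225L than in 2208L (2.01, limma adjusted p 0.0125) although the groups overlapped, and without replicate 1 of 2225L it was not called (1.33, limma adjusted p 0.171). That call was lost in 3 of 22 alternatives.

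The Bcl2a1 genes, whose product A1 is a survival protein found mainly in blood cells, were low in 2225L. Bcl2a1a, Bcl2a1b and Bcl2a1d are near-identical copies, and how reads were shared among them is not given, so the values of each are uncertain. In 2225L, Bcl2a1a was -2.84 and -1.59, Bcl2a1b -1.60 and -1.85, and Bcl2a1d -3.41 and -1.11. Bcl2a1b ran from -0.50 to 0.72 in 2208L. All 3 were lower in 2225L than in 2208L, by differences of -2.66 for Bcl2a1a (SE 0.372, limma adjusted p 0.000157), -1.78 for Bcl2a1b and -2.50 for Bcl2a1d. Of the 9 further family genes, 3 were thus called lower, where 17.3% of all genes were. Another 2, Bok and Hrk, were called higher, where 15.6% were. As near-identical copies, the Bcl2a1 genes do not count as 3 separate results. Beside them, all 4 neutrophil genes in the table were lower in 2225L, with summed values of -9.83 and -8.97 against -2.50 to 8.76 in 2208L, and of 5 macrophage genes Csf1r, Adgre1 and Msr1 were lower. The part of these cells in the Bcl2a1 values was not tested. Bcl2l2, Bax and Bad were not called in any comparison between models. For Bax the difference was -0.15 between 2151R and 2208L (interval -0.48 to 0.18) and 0.14 between 2225L and 2208L (interval -0.29 to 0.57). Within 2208L, Bax, Bad and the 3 Bcl2a1 genes were lower in PBS than in 3day nt samples, by differences from -0.94 (Bcl2a1a) to -0.41 (Bax), where 16.5% of all genes were called lower. All 5 of these calls were lost without replicates 6 and 8 of 2208L, the samples with the highest muscle sums.

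**Figure D3:**
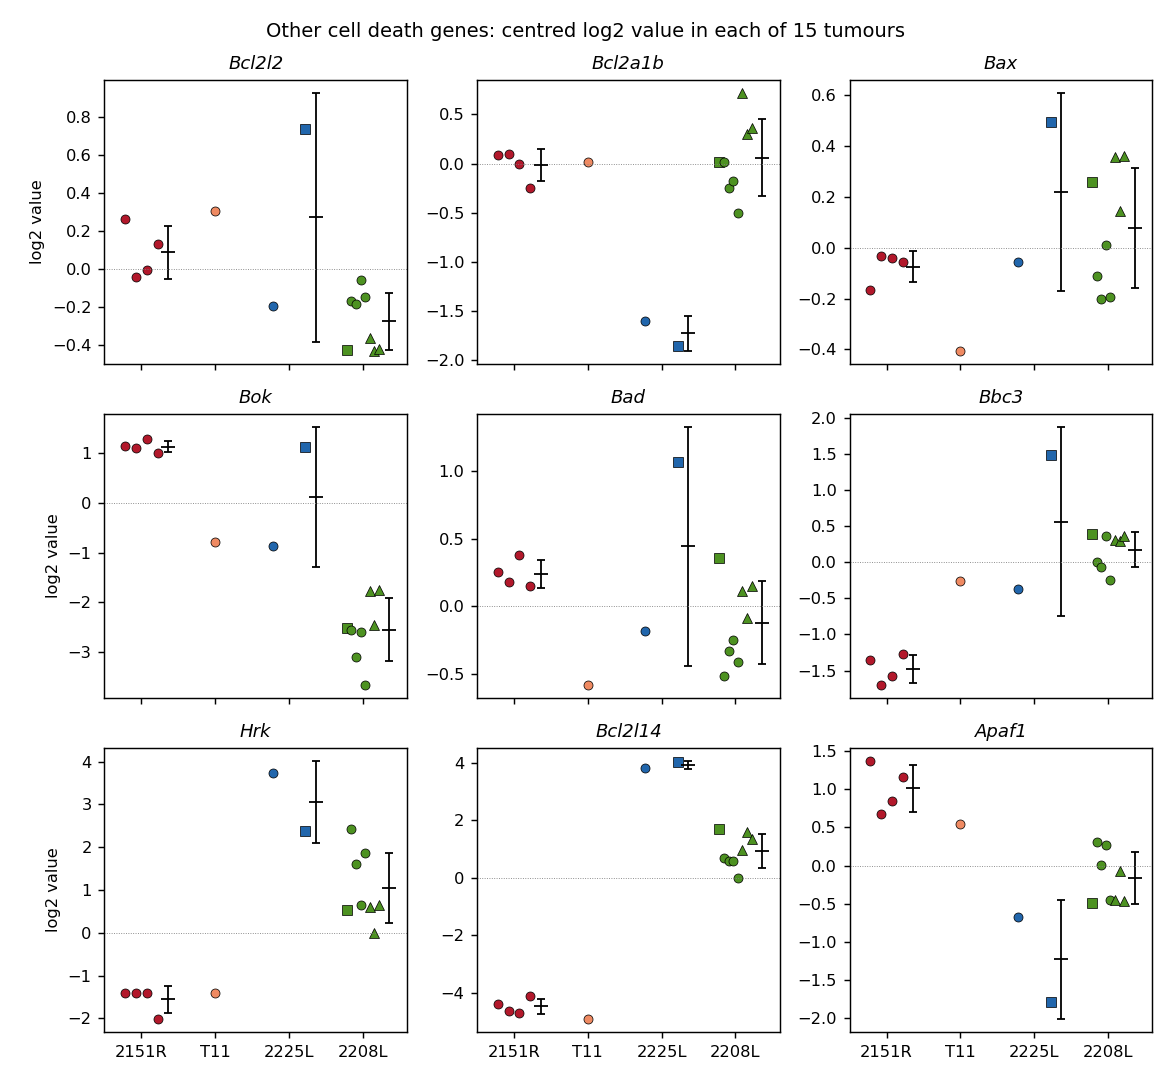
Centred log2 value (vertical axis) of 9 further genes of the pathway in each of the 15 tumours, by model (horizontal axis). Squares are libraries with the prefix ROSEN, triangles the 2208L samples titled 3day nt, circles all others, and bars the mean ± SD. Bok separates 2208L (-3.66 to -1.75) from every other sample, Bcl2a1b and Apaf1 are lowest in both samples of 2225L, and Bcl2l14 separates 2151R and T11 from 2225L and 2208L.

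Among 8 genes with Bcl2-like or Bnip names, Bcl2l14 gave the widest split. It was -4.69 to -4.13 in 2151R and -4.92 in T11, against 3.83 and 4.03 in 2225L and 0.00 to 1.69 in 2208L. No model overlapped another at Bcl2l14, and T11 lay just below 2151R. The difference of 2151R from 2208L was -5.40 (SE 0.287, limma adjusted p 4.96e-09) and that of 2225L from 2208L was 3.0 (SE 0.371, limma adjusted p 5.68e-05). Bcl2l15 was lower in both 2151R (-3.32, limma adjusted p 0.000644) and 2225L (-3.34, limma adjusted p 0.00649) than in 2208L, and the call for 2225L, with values of -2.31 and 0.33, was lost without its replicate 1 (-2.02, limma adjusted p 0.135). Its value in T11 was 4.46, above every other sample. Bnip2 was higher in 2151R than in 2208L by 1.33 (limma adjusted p 5.73e-05). In all, 1 of these 8 genes was higher and 2 were lower in 2151R than in 2208L, where 26.1% and 22.7% of all genes were. In 2225L 2 were higher and 1 was lower than in 2208L, where 15.6% and 17.3% of all genes were.

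Downstream of the mitochondria, Apaf1, the scaffold of the apoptosome, was highest in 2151R (0.68 to 1.37) and lowest in 2225L (-0.68 and -1.78). It differed from 2208L by 1.18 in 2151R (SE 0.238, limma adjusted p 0.00113) and by -1.06 in 2225L (SE 0.308, limma adjusted p 0.0177). Without replicate 2 of 2225L the latter was -0.51 and not called. Within the CP libraries, which hold the same sample of 2225L, it was -0.56. Casp6, an executioner caspase, was 0.82 to 0.84 in 2151R and -0.95 to -0.39 in 2208L (difference 1.43, limma adjusted p 6.44e-07). Endog, a mitochondrial nuclease, had a difference of -1.80 in 2151R (limma adjusted p 0.00868). That call was lost when only titles with NT, nt or PBS were used (-1.67, limma adjusted p 0.104) and with the PBS samples alone as 2208L (-1.25, limma adjusted p 0.0939). Of 10 genes of the apoptosome and caspases, 2151R had 2 called above and 3 called below 2208L, where 26.1% and 22.7% of all genes were. In 2225L 1 was higher, Casp6 (0.86), and 1 lower, Apaf1, where 15.6% and 17.3% of all genes were.

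Of 5 inhibitor of apoptosis genes, Birc3 and Xiap, whose products restrain caspases or death receptor signalling, were lower in 2225L than in 2208L. That is 2 called lower, where 17.3% of all genes were, and none (0) higher, where 15.6% were. Birc3 differed by -1.19 (SE 0.199, limma adjusted p 0.000593). Xiap differed by -0.87 (limma adjusted p 0.0157) and lost that call in 6 of 23 alternatives. Among them were quantile normalization (-0.72, limma adjusted p 0.0619) and the fits without replicate 1 (-0.82) or replicate 2 (-0.92) of 2225L. Another was the fit within the CP libraries (-0.96), which hold 1 sample of 2225L. In 2151R, Birc6 was the 1 gene of these called, where 26.1% of all genes were higher and 22.7% lower. Birc6 was 0.82 above 2208L (limma adjusted p 0.0262), and it was not called without replicate 1 or 4 of 2151R. It was also not called with the PBS samples alone as 2208L (0.45, limma adjusted p 0.201) or with NT, nt or PBS titles only (0.76, limma adjusted p 0.160).

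Of 8 death receptor genes, 5 were lower and none (0) higher in 2225L than in 2208L, where 17.3% of all genes were lower and 15.6% higher. The 5 were Fas, Tnfrsf10b, Tradd, Ripk1 and Cflar. Tnfrsf10b, a receptor for Trail, was -0.89 and -0.93 in 2225L and -0.30 to 0.30 in 2208L (difference -0.84, SE 0.173, limma adjusted p 0.00250). Fas was -2.05 and 0.42 in 2225L, a difference of -1.34 with overlapping groups (limma adjusted p 0.0396). Without replicate 1 of 2225L it was -0.11 (limma adjusted p 0.846), and the call was lost in 11 of 23 alternatives, among them those without replicate 1, 3, 4, 5 or 6 of 2208L. Ripk1 was -1.07 and -1.64 in 2225L and differed by -0.99 (limma adjusted p 0.00882). Without replicate 2 of 2225L Ripk1 was not called (-0.71). Within the CP libraries, which hold the same sample of 2225L, its difference was -0.72. In 2151R 3 of the 8 were higher than in 2208L, with Ripk1 at 0.97 (limma adjusted p 0.00112) and Casp8, the caspase that cuts Bid, at 0.83 (limma adjusted p 0.000429), and 1 was lower, Tradd, where 26.1% of all genes were higher and 22.7% lower. The calls of Tradd and Cflar for 2151R were each lost in 6 alternatives, and those for 2225L in 13 of 22 and 15 of 23.

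Of 5 genes known to act on Mcl1, Bim or Bak, Fbxw7, a ubiquitin ligase subunit that targets Mcl1, was lower than in 2208L in both other replicated models. It was -0.34 to 0.18 in 2151R, -0.31 and -0.36 in 2225L, 0.22 in T11 and 0.70 to 1.18 in 2208L. All 8 samples of 2208L lay above the 7 others. The differences from 2208L were -0.99 for 2151R (SE 0.131, limma adjusted p 3.63e-05) and -1.24 for 2225L (SE 0.170, limma adjusted p 0.000130). Vdac2, a channel protein that holds Bak at mitochondria, was called higher in 2225L (0.70, limma adjusted p 0.0495) and lost that call in 14 of 22 alternatives.

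The members lie on 7 chromosomes, and neighbouring genes were compared with them. In GRCm38, GENCODE places Bcl2 at chr1:106538178-106714274, Bcl2l1 at chr2:152780668-152831728, Bmf at chr2:118528757-118549687 and Bcl2l11 at chr2:128126038-128162547. It places Mcl1 at chr3:95658788-95663176, Bid at chr6:120891930-120916853, Bik at chr15:83526862-83544634, Bak1 at chr17:27019810-27029009 and Pmaip1 at chr18:66458533-66465565. Bcl2l11, Mcl1, Bik and Pmaip1 are on the plus strand and the other 5 on the minus strand, and all 9 are protein-coding. For each, the 30 genes of the table on either side in RefSeq order were taken, and 93.7% of the table's genes could be placed.

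For 2225L minus 2208L, the 60 neighbours of Mcl1 had a median difference of -0.74 (quartiles -1.38 to -0.42), and Mcl1 itself (-1.06) lay within their quartiles. The neighbours of Pmaip1 had a median of -0.73 (quartiles -1.29 to -0.21), and Pmaip1 (-2.36) lay below them. Those of Bik had a median of 0.65 (quartiles 0.29 to 1.05), and Bik (2.76) lay above them. Between the replicates of 2225L (replicate 2 minus replicate 1) the median of the neighbours of Bik differed by 0.76. Around the other members that median ran from -0.44 (Bak1) to 0.50 (Bcl2). For 2225L minus 2208L, neighbours of members that were not called also had medians away from 0. These were 0.68 for Bak1 (quartiles 0.33 to 1.28, member 0.19) and 0.64 for Bcl2l1 (member 0.03). For Bcl2l11 the neighbours had a median of 0.06, with the member at -0.81.

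For 2151R minus 2208L, the neighbours of the called members were shifted less, or the other way. The median was 0.45 around Bmf (quartiles 0.04 to 1.05, member -2.25), 0.02 around Bid (quartiles -0.68 to 0.34, member -1.18) and 0.04 around Bcl2l1 (quartiles -0.50 to 0.49, member -0.87). It was -0.18 around Bcl2 (quartiles -0.89 to 0.12, member -0.90) and -0.22 around Bak1 (quartiles -0.94 to 0.19, member 0.49). All 5 called members lay outside the quartiles of their neighbours, Bcl2 by a small margin. Quartiles leave out part of any set of genes, and these members were taken because they were called. The count is therefore no test of a local shift. Copy number was not measured in these data, and its part in these shifts was not tested.

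**Figure D4:**
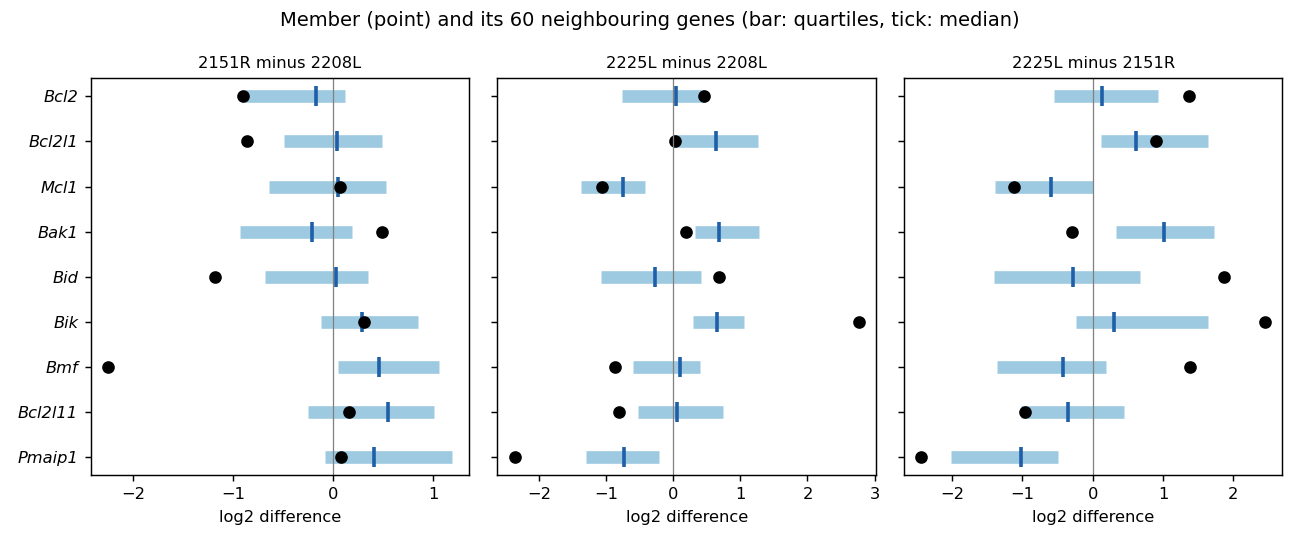
Log2 difference (horizontal axis) of each of the 9 genes (point) and of its 60 neighbouring genes (bar from lower to upper quartile, tick at the median) in 3 model comparisons. For 2225L minus 2208L the bars of Mcl1 and Pmaip1 lie below 0 and that of Bik above 0, and for 2151R minus 2208L the point of Bmf lies far below its bar.

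The genes most like Bmf, Bid and Bcl2, the members with the largest differences between 2151R and 2208L, were found by Pearson correlation over the 15 samples among 14180 genes. Nearest to Bmf were Smox (r = 0.984) and Tollip (r = 0.983). Nearest to Bid were Cd3eap (r = 0.981) and Pradc1 (r = 0.975), and nearest to Bcl2 were Jade3 (r = 0.948) and Plekhh1 (r = 0.944). The 15 points share 4 models, so these values describe likeness of the pattern across models and samples together.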

How the data were processed

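RNA was sequenced from 15 tumours, and per the labels' protocols total RNA from a column kit went into oligo-dT TruSeq libraries. Per the submitters' processing notes STAR, Salmon and mm10 were used, with no versions or roles given. The authors deposited 1 table of log2 values, centred per gene on an unstated reference. The offset, normalization and depth are not given in the sources used here. At 727 genes (4.21%) samples share an exact value, used as deposited.

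The model in each title set the group, and replicate numbers follow accession order. Tests used limma (version 3.58.1, lmFit and eBayes, in R 4.3.3) on the deposited values of all 17271 genes, in 1 fit of 15 samples with a mean per model. PBS and 3day nt used a fit of their 7 samples. The fit and the exact permutation test were tested on simulated data. No filter on low values was applied, so all 9 members and all listed genes present were tested. The genes, pathway lists and marker lists were chosen with earlier results of these data known. All members and the family genes outside them are named, and of each other list up to 2 called genes with the largest difference in 2151R or 2225L against 2208L, while other genes are named to account for a count. Bcl2a1c, Bcl2l10, Fasl, Ms4a1 and Ly6g were listed and not analysed here, and 1 further listed gene is not reported here. Promoters came from RefSeq and positions from GENCODE vM21. Alternatives covered scaling, the eBayes settings, sample weights, library prefix, sample subsets and single samples left out.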

Additional observations from a re-analysis of the deposited data

Results flagged for a closer look

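In 4 of 93 groups of 4 to 8 samples, 1 sample lay far from the others by Dixon's criterion, where chance gives about 1 in 20 groups, or 4.65. None of the 4 was at one of the 9 members. In 2151R, replicate 1 had Bcl2a1a at 0.174 (others -0.139 to -0.103) and Bax at -0.166 (others -0.056 to -0.034), and replicate 4 had Hrk at -2.016 with the others at -1.408, a shared exact value that is not read as a measured level. Among the PBS samples of 2208L, replicate 5 had Xiap at 0.153 (others 0.476 to 0.502).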

How the results depend on the processing

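For 2151R against 2208L, the calls of Bcl2, Bcl2l1, Bid and Bmf held in all 27 alternatives run, with differences of -1.19 to -0.62, -0.93 to -0.78, -1.26 to -1.02 and -2.50 to -1.85. When only samples with NT, nt or PBS in the title were used, 5466 genes were called in place of 8434, and leaving out 1 sample gave 7033 to 8519 genes and 5 members throughout. For 2225L against 2208L, Mcl1 (-1.31 to -0.73, 23 alternatives) and Pmaip1 (-2.98 to -1.75, 24 alternatives) held in all. Sample weights gave 2158 genes in place of 5687, and leaving out the 25% of genes with the smallest SD gave 2 members in place of 4, where some members were themselves left out. Leaving out 1 sample gave 4580 to 6048 genes and 3 to 5 members. For 2225L against 2151R, sample weights gave 5252 genes in place of 8398, CP libraries only gave 5 members, and leaving out 1 sample gave 6611 to 8200 genes and 5 to 8 members. For PBS against 3day nt, sample weights gave 11692 genes in place of 5864, leaving out 1 sample gave 2379 to 6800 genes and 1 to 4 members, and leaving out the samples with high muscle genes gave 98 genes and 0 members. The causes of these shifts were not tested, apart from the members left out. Fitting the sample weights gave a convergence warning in an alternative fit, so results under sample weights are to be read with caution. Over all alternatives, 421 values of members called in the reported fit were recomputed: 386 kept the call and direction, 35 lost the call and 0 reversed. For 2151R and 2225L against 2208L the alternatives include the exact permutation test. There a call means its p under 0.05, not adjusted over genes. Of 314 values of members not called, 13 became calls and 18 had the other sign without a call, among them Mcl1 (-0.19 to 0.25) and Bik (-0.33 to 0.97) for 2151R against 2208L. In T11, 5 values moved by more than the spread between samples. Under quantile normalization Bcl2l1 in T11 lay -1.07 from 2208L, past the mark for a large difference. No paired analysis was possible because no number in the titles links a sample of one group to one of another. The exact test was not run for 2225L against 2151R (smallest p 0.133) or PBS against 3day nt (0.0571), where it cannot pass the threshold. Without counts, no limit from depth can be given.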
